A study of Mus musculus with 6 samples.

Results

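The liver X receptors (LXRs) and 8 of their target genes were followed in Kupffer cells, macrophages that live in the sinusoids of the liver. The set was chosen by gene symbol and comprises the receptor genes Nr1h3 and Nr1h2, the sterol transporters Abca1 and Abcg1, the phosphodiesterase Smpdl3a, the lipogenic regulator Srebf1, the desaturases Scd1 and Scd2, the acyltransferase Lpcat3 and the ubiquitin ligase Mylip. All 10 symbols were found once each among the 54532 genes of the deposited count table, and all 10 passed the filter on low counts. RNA sequencing covered 6 libraries of sorted Kupffer cells from male mice, with 3 libraries from mice lacking Trem2 (Trem2_KO) and 3 from their wild-type littermates (WT). Every mouse was given a high fat diet from 8 weeks of age for 8 weeks, and no group on another diet was analysed here. TREM2 is a macrophage surface receptor that binds lipids and lipoproteins, and the comparison asks how its loss bears on Kupffer cell transcripts under this diet. The sources used here give neither the make-up of the Trem2 allele nor whether each library came from its own mouse. The p-values therefore reflect only how these libraries vary, which may be technical.

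LXRs are nuclear receptors that pair with retinoid X receptors on DNA and are switched on by oxysterols and desmosterol, which build up when a cell holds excess cholesterol. Their targets act on that load and on membrane lipids: ABCA1 and ABCG1 move cholesterol out to lipoprotein acceptors, the ubiquitin ligase MYLIP (also called IDOL) limits lipoprotein uptake, and SREBF1, the SCD desaturases and LPCAT3 raise the supply of unsaturated fatty acids and phospholipids. Kupffer cells depend on LXR-alpha, the product of Nr1h3, for their identity.

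Total counts were 15799351 to 15893041 in WT and 16347967 to 17135603 in Trem2_KO libraries. Levels are given in CPM (each count scaled to a common library total) after TMM normalization, which corrects for differences in library composition, and changes as the log2 ratio of Trem2_KO over WT with its standard error (SE). A gene was called at an adjusted p under 0.05 in edgeR's quasi-likelihood test with Benjamini-Hochberg adjustment over all 13776 genes tested. Trem2 itself had 84.7, 90.0 and 84.2 CPM in the WT libraries against 16.6, 17.3 and 14.5 CPM in the Trem2_KO libraries, in the direction of the labels in every library. The share of tested genes that was called came to 30.3% (15.3% on the higher and 15.1% on the lower side in Trem2_KO), and the groups did not overlap for 41.6%. With total counts in place of TMM, 61.2% of the called genes were on the higher side, against 50.3%. The spread behind these calls was small, with a biological coefficient of variation of 0.0378, and the median absolute log2 change of all tested genes was 0.16.

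All 10 Kupffer cell markers on the list used here were present, led by Clec4f, Cd5l and Csf1r, and their summed level was 45550 to 46790 CPM in WT and 41090 to 41800 CPM in Trem2_KO, with 8 of 10 called lower and 0 higher (0 also at an unadjusted edgeR p under 0.05, and 0 with DESeq2). Hepatocyte markers summed to 1643 to 1705 CPM in WT and 1362 to 1406 CPM in Trem2_KO, with 7 of 12 called lower and 2 higher; Alb was at 805 ± 21.3 and 779 ± 23.3 CPM (SD, n = 3). Sinusoidal endothelial markers summed to 2059 to 2075 CPM in WT and 2017 to 2030 CPM in Trem2_KO. Of these 12 markers, 9 were called higher and 2 lower, with a median log2 change of 0.44. Most of the sum was Cdh5, which was called lower, while Stab2 went from 406 to 429 CPM. Monocyte markers summed to 303 to 308 CPM in WT and 415 to 424 CPM in Trem2_KO, with 5 of 8 called higher and 1 lower, although Ly6c2 had only 8 to 15 reads in any library. The remaining marker lists were small: neutrophil markers summed to 182 to 209 CPM over all libraries, almost all of it Csf3r and with Ly6g at 0 reads, B cell markers to 87.8 to 117 CPM, dendritic cell markers to 41.3 to 53.3 CPM, stellate cell markers to 10.3 to 14.4 CPM, and T and NK cell markers and cholangiocyte markers to under 3 CPM each. Of these, 1 neutrophil marker and 3 B cell markers were called lower and 1 dendritic cell marker higher. Because RNA was pooled over cells, fewer cells of a type and less RNA per cell cannot be told apart. The part of these other cells in the results that follow was not tested.

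Per length, the set spanned a wide range of levels, from Smpdl3a and Nr1h3 at the top to Lpcat3 and Scd2 at the bottom. On the scale of the deposited FPKM (fragments per kilobase of transcript, scaled to library size), Smpdl3a stood at 400 ± 6.24 in WT and 355 ± 8.34 in Trem2_KO (SD, n = 3), above 99.35% of all tested genes, and Nr1h3 at 275 ± 8.35 and 264 ± 4.95. Abcg1 followed at 86.8 ± 4.29 and 105 ± 1.69 FPKM, and Abca1 at 82.4 ± 3.39 and 95.1 ± 0.248 FPKM. The 6-library ranges of these transporters overlapped, so their order was not resolved. Scd1 came next at 48.7 ± 1.13 and 60.8 ± 0.611 FPKM, then Nr1h2 at 37.3 ± 1.01 and 38.2 ± 0.558 FPKM and Mylip at 35.7 ± 1.69 and 38.2 ± 1.72 FPKM, again with overlapping ranges. Srebf1, Lpcat3 and Scd2 shared the lowest level, between 15.8 and 19.2 FPKM over all libraries, and each overlapped its neighbour in the order. Even these were above at least 79.92% of all tested genes.

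**Figure D1:**
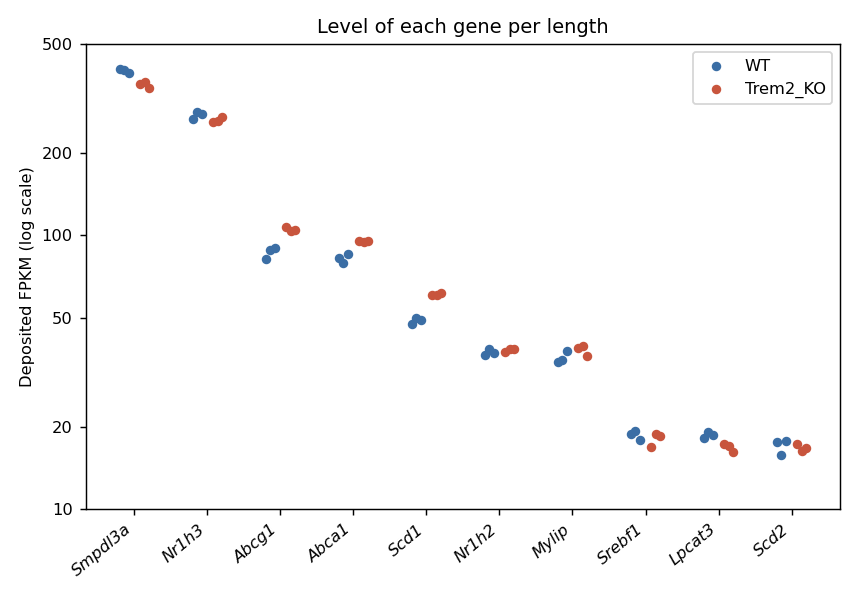
Deposited FPKM (log axis) of each gene in the 3 WT (blue) and 3 Trem2_KO (red) libraries, ordered by the mean over all 6 libraries. Smpdl3a and Nr1h3 sit between 260.1 and 405 FPKM in all libraries, while Srebf1, Lpcat3 and Scd2 sit between 15.8 and 19.2 FPKM.

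Of the 10 genes, 3 rose (Abca1, Abcg1 and Scd1), 2 fell (Smpdl3a and Lpcat3) and 5 were not called, among them both receptors. The 50% that were called stand against 30.3% of all genes tested, and the 5 called genes were also those whose groups did not overlap, against 41.6% of all genes. The median log2 change was 0.0062, beside -0.005 for all tested genes, with called genes on both sides of it. Every change was small, between -0.17 and 0.32 on the log2 scale. For Scd1, the largest of them, 23.45% of all tested genes had a larger absolute change.

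**Figure D2:**
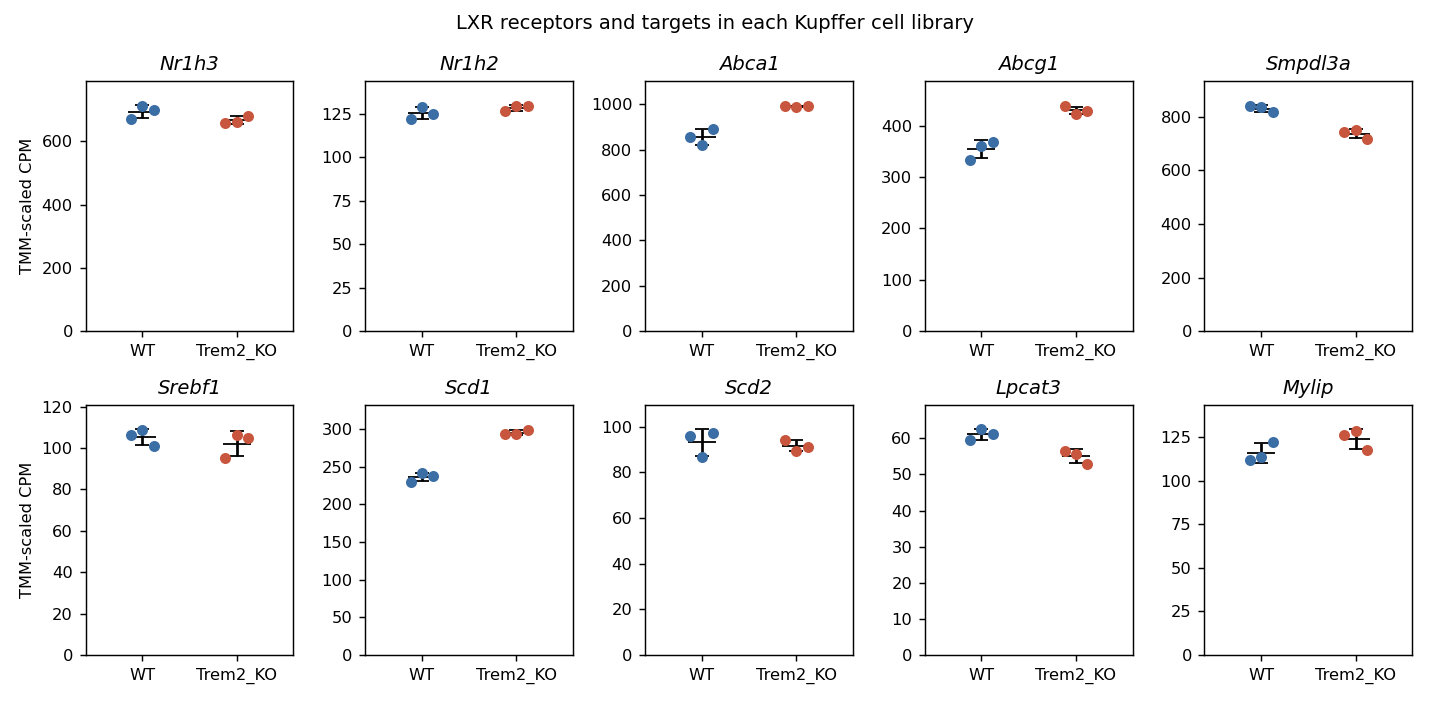
TMM-scaled CPM (vertical axes from 0) of the 10 genes in each library, with WT in blue and Trem2_KO in red; bars show mean ± SD with n = 3 per group. The groups separate for Abca1, Abcg1 and Scd1 (higher in Trem2_KO) and for Smpdl3a and Lpcat3 (lower), and overlap for the other 5 genes.

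The receptor genes were not called. Nr1h3 (ENSMUSG00000002108, chromosome 2, 91184061 to 91202834, GRCm38, minus strand), which encodes LXR-alpha, had 671, 713 and 699 CPM in the WT libraries against 658, 663 and 681 CPM in the Trem2_KO libraries. The highest Trem2_KO library lay above the lowest WT library, and the log2 change was -0.06 (SE 0.0274, 95% interval -0.11 to -0.0024, edgeR adjusted p = 0.109). Leaving out WT replicate 1 gave -0.08 and a call (adjusted p = 0.0464), while removing each library's trend with gene length gave 0.0070. Nr1h2 (ENSMUSG00000060601, chromosome 7, 44549616 to 44553951, minus strand), the gene of the widely expressed LXR-beta, had 122, 129 and 125 CPM in the WT libraries against 127, 130 and 130 CPM in the Trem2_KO libraries. Its groups overlapped, and the interval of its log2 change ran from -0.04 to 0.11 (adjusted p = 0.527).

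Nr1h3 supplied most of the LXR transcript per length in every library. Its share of the summed Nr1h3 and Nr1h2 FPKM was 88.0%, 88.0% and 88.2% in WT and 87.4%, 87.2% and 87.5% in Trem2_KO. The groups did not overlap, although the difference was only -0.70 percentage points. A two-sided exact permutation test gave p = 0.1, the smallest value that 3 against 3 libraries allow, and 0.15 after Benjamini-Hochberg adjustment over the 3 shares tested.

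The cholesterol exporters rose together. Abca1 (ENSMUSG00000015243, chromosome 4, 53030787 to 53159895, minus strand), which loads cholesterol and phospholipid onto lipid-poor apolipoprotein A-I, had 856, 821 and 892 CPM in the WT libraries against 993, 987 and 991 CPM in the Trem2_KO libraries. All Trem2_KO libraries were above all WT libraries, with a log2 change of 0.21 (SE 0.0268, n = 3 per group, edgeR adjusted p = 8.39e-09), a rise of 15.6%. Abcg1 (ENSMUSG00000024030, chromosome 17, 31057698 to 31115777, plus strand), which passes cholesterol on to mature high-density lipoprotein, had 334, 361 and 368 CPM in the WT libraries against 437, 423 and 427 CPM in the Trem2_KO libraries. Again the groups did not overlap, and the log2 change was 0.28 (SE 0.0312, edgeR adjusted p = 2.5e-10), a rise of 21.3%. The share of Abca1 in the summed FPKM of both genes was 48.7% ± 1.49 in WT and 47.5% ± 0.351 in Trem2_KO (SD, n = 3), with overlapping groups and a two-sided exact permutation p of 0.3 (0.3 adjusted). The difference of -1.2 percentage points was -0.475 without WT replicate 1 (exact p = 0.6) and -1.96 without WT replicate 2 (exact p = 0.1). Among monocyte markers, 5 of 8 had a call on the higher side and 1 on the lower side. For sinusoidal endothelial markers these numbers were 9 and 2 of 12. All tested genes had 15.3% and 15.1% on these sides. The monocyte sum was higher in Trem2_KO, and its main gene Nr4a1 was called higher at 0.57. The endothelial sum was lower in Trem2_KO (2017 to 2030 against 2059 to 2075 CPM), and its main gene Cdh5 was called lower at -0.15. The median log2 change of the 12 endothelial markers was 0.44, so their sum and their median differed in direction. Whether RNA from these cells bears on the rise of the exporters was not tested. With the length trend removed, the log2 change of Abca1 was 0.12 (adjusted p = 6.6e-05) while that of Abcg1 was 0.29. Abcg1 lies 17.3 Mb from Trem2 on the same chromosome; of the 364 tested genes within 20 Mb of Trem2, 43.7% were called, against 30% elsewhere, and whether its position bears on its rise was not tested.

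The start region of Abca1 is shown because it and the start region of Srebf1 were the windows of the set with a match to an LXR-type repeat; Abca1 rose and Srebf1 was not called. Promoter windows of 300 bases (250 before and 50 after a start site) were taken from RefSeq on build GRCm38.p6, and 6 of the 10 genes matched by symbol, with 9 windows in all: Nr1h3, Nr1h2, Abca1, Srebf1, Lpcat3 and Mylip. LXR binds with RXR to direct repeats, and the repeat AGGTCA, then 4 bases of any kind, then AGGTCA again, was searched on both strands with up to 3 mismatches among its 12 fixed letters. A match was found in 2 of the 9 windows (in 2 of 6 genes), against 21.9% of all 32851 windows, a share like that of the set. Both sequences are written 5′ to 3′ on the gene's own strand, and capitals mark the match, which reads on the opposite strand.
Abca1, chr4:53159846-53160145, minus strand: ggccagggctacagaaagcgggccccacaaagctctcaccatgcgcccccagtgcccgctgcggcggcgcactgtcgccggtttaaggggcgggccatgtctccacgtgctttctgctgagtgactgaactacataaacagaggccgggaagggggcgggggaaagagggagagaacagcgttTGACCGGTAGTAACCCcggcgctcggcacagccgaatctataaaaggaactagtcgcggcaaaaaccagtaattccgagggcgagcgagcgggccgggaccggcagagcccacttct
Srebf1, chr11:60210422-60210721, minus strand: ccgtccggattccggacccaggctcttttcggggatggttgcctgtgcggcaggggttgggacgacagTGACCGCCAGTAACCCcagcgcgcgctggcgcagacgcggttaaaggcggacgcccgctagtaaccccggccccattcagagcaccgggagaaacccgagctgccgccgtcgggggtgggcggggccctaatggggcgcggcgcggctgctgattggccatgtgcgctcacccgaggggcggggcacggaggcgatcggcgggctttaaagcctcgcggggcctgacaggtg
The Abca1 match lies 67 to 52 bases before the start site. That of Srebf1 lies 182 to 167 bases before a start site inside the annotated gene, and the windows at the other Srebf1 start sites had no match. Read on the strand of the repeat, the matches were:
Abca1: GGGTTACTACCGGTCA
Srebf1: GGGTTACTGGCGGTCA
Fasn: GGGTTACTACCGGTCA
These share the letters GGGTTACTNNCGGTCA, which occur (either strand, no mismatch) in 3 of all 32851 windows, the third being that of the fatty acid synthase gene Fasn, 225 to 210 bases before its start site. The shared letters were read off the Abca1 and Srebf1 matches after they were seen, and every such match also counts as a match of the direct repeat with 3 mismatches. A match of letters is a description and does not by itself show binding, which was not measured here. Of the 3 genes with these letters, Abca1 was called higher, and Srebf1 (log2 change -0.05) and Fasn (0.02, SE 0.0555, edgeR adjusted p = 0.841) were not called.

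Smpdl3a, the most abundant of the set per length, fell. SMPDL3A is a lysosomal and secreted phosphodiesterase known as an LXR-responsive gene of macrophages. The gene (ENSMUSG00000019872, chromosome 10, 57794335 to 57811830, plus strand) had 837, 835 and 815 CPM in the WT libraries against 741, 751 and 718 CPM in the Trem2_KO libraries. Every Trem2_KO library was below every WT library, and the log2 change was -0.17 (SE 0.0264, edgeR adjusted p = 6.3e-07), a difference of -11.2%. With the length trend removed it was -0.09 (adjusted p = 0.00204). In the same libraries 8 of 10 Kupffer cell markers were called lower, beside 15.1% of all tested genes, with a median log2 change of -0.17. These markers ranged from Marco at -1.11 to Adgre1 (-0.02) and Csf1r (-0.0044), which were not called. Whether the fall of Smpdl3a is tied to that of these markers was not tested. Thus Smpdl3a and the exporters were called in opposite directions in the same libraries. Whether LXR acts on Smpdl3a in these mouse cells was not tested.

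The lipogenic branch split, with Scd1 called higher and Srebf1 and Scd2 not called. Srebf1 (ENSMUSG00000020538, chromosome 11, 60199089 to 60222581, minus strand) encodes SREBP-1, the transcription factor that drives fatty acid synthesis genes, and its isoforms from alternative start sites were counted as one gene. It had 106, 109 and 101 CPM in the WT libraries against 95.3, 106 and 105 CPM in the Trem2_KO libraries. Its groups overlapped, and the log2 change was -0.05 (SE 0.0443, 95% interval -0.13 to 0.04, adjusted p = 0.473). In the GENCODE M21 annotation 109 of its 5634 exonic bases also belong to Rai1 on the other strand, which was called higher by 0.15 (edgeR adjusted p = 0.0361). Without Trem2_KO replicate 1, the lowest library, the change of Srebf1 was 0.0019.

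Scd1 (ENSMUSG00000037071, chromosome 19, 44394451 to 44407709, minus strand) encodes the stearoyl-CoA desaturase that makes oleate and is abundant in hepatocytes. It had 230, 241 and 238 CPM in the WT libraries against 294, 293 and 299 CPM in the Trem2_KO libraries. The groups did not overlap, and the log2 change of 0.32 (SE 0.0317, edgeR adjusted p = 4.76e-12), a rise of 24.9%, was the largest of the set. In the same libraries the summed hepatocyte markers were lower in Trem2_KO and Alb was not called. Of the 12 hepatocyte markers, 2 were called higher and 7 lower, beside 15.3% and 15.1% of all tested genes. Whether hepatocyte RNA bears on the rise of Scd1 was not tested. The neighbour and paralogue of Scd1, Scd2 (ENSMUSG00000025203, chromosome 19, 44293676 to 44306864, plus strand), 87.6 kb away, had 96.0, 86.5 and 97.1 CPM in the WT libraries against 94.4, 89.5 and 91.1 CPM in the Trem2_KO libraries. The groups of Scd2 overlapped and its log2 change was -0.02 (SE 0.0461, 95% interval -0.12 to 0.07, adjusted p = 0.739), with a value of 0.0036 without WT replicate 3 and 0.0060 when scaled to total counts.

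The balance between the desaturases was lower for Scd2 in every Trem2_KO library. Scd2 made up 27.0%, 24.2% and 26.6% of the summed Scd1 and Scd2 FPKM in WT and 22.2%, 21.3% and 21.3% in Trem2_KO. The groups did not overlap, with a difference of -4.33 percentage points and a two-sided exact permutation p of 0.1, the smallest possible (0.15 adjusted). The other genes of this cluster were barely read, Scd3 at 0 or 1 count and Scd4 at 1 to 3 counts per library. Of the 50-base words in the transcripts of Scd1, 4.56% also occur in transcripts of other genes, and 3.97% of those of Scd2 do, chiefly within this family, so reads from these stretches are uncertain.

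Lpcat3 (ENSMUSG00000004270, chromosome 6, 124663027 to 124704418, plus strand), which places polyunsaturated fatty acids in membrane phospholipids, fell slightly. It had 59.6, 62.4 and 61.2 CPM in the WT libraries against 56.6, 55.6 and 52.9 CPM in the Trem2_KO libraries. The groups did not overlap and the log2 change was -0.15 (SE 0.0527, edgeR adjusted p = 0.0248). This call was lost without WT replicate 2 (adjusted p = 0.0865), without Trem2_KO replicate 2 (adjusted p = 0.0518) and without Trem2_KO replicate 3 (adjusted p = 0.121). It was also lost with DESeq2 (adjusted p = 0.0954), with total counts (adjusted p = 0.0796) and with the length trend removed (adjusted p = 0.13). Emg1, on the other strand, shares 334 of the 3268 exonic bases of Lpcat3 in GENCODE M21 and had 3400 reads over the libraries against 5669 for Lpcat3; it was at -0.10 and not called (adjusted p = 0.282).

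Mylip (ENSMUSG00000038175, chromosome 13, 45389742 to 45412022, plus strand) had 112, 114 and 122 CPM in the WT libraries against 126, 128 and 118 CPM in the Trem2_KO libraries. Here 1 library of each group lay within the range of the other, and the log2 change of 0.10 (SE 0.042, 95% interval 0.01 to 0.18) was not called (edgeR adjusted p = 0.0684). It was called higher without WT replicate 3 (adjusted p = 0.0178), without Trem2_KO replicate 3 (adjusted p = 0.0162) and with the length trend removed (adjusted p = 0.00534).

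**Figure D3:**
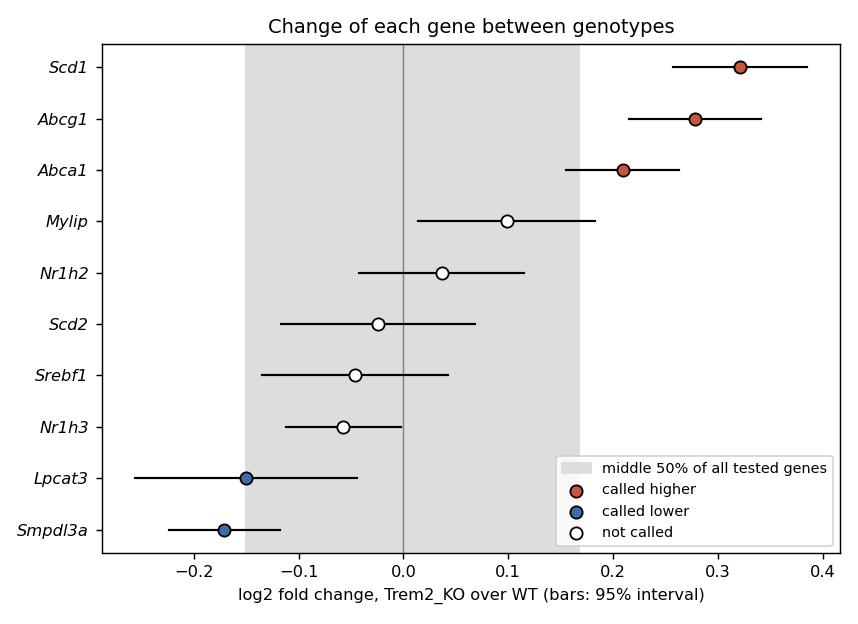
log2 fold change of Trem2_KO over WT with its 95% interval for each gene; fill shows the call and the grey band the middle 50% of all tested genes (-0.15 to 0.17). Abca1, Abcg1 and Scd1 lie to the right of the band, Smpdl3a just to its left, and the other genes within it or at its edge.

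These calls rest on a small spread between libraries. With a biological coefficient of variation of 0.2 set for every gene in place of the estimate, 0 of the 10 genes were called in edgeR (0 also at an unadjusted p under 0.05), and 371 of all 13776 genes were. With their own estimates, DESeq2 called 4 of the 10 and limma-voom 5.

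Several coregulators of the receptors rose. Rxra, a partner of LXR that was chosen after its value was seen, was not called (edgeR adjusted p = 0.796), with 957 ± 21.0 CPM in WT and 950 ± 19.6 CPM in Trem2_KO (SD, n = 3). Of 14 tested partners and coregulators, 6 were called higher and 0 lower (0 lower also at an unadjusted edgeR p under 0.05 and with DESeq2), beside 15.3% higher and 15.1% lower among all tested genes, with a median log2 change of 0.12. They included the corepressor Ncor1 (0.30, SE 0.0368), the coactivators Ncoa1 (0.31, SE 0.0431), Ep300 (0.23), Crebbp (0.19) and Med1 (0.20). With the length trend removed, Ncor1 was at 0.18 and Ep300 at 0.09, both still called (adjusted p = 3.14e-05 and 0.0286), and the calls of Crebbp and Med1 were lost (adjusted p = 0.417 and 0.0743).

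Other known LXR targets went both ways, like the 10 genes. Of 20 tested, 6 were called higher and 4 lower, beside 15.3% and 15.1% of all tested genes, with a median log2 change of 0.04. Fads2, a desaturase of polyunsaturated fatty acid synthesis, had 3.89, 4.15 and 3.77 CPM in the WT libraries against 10.8, 13.0 and 10.8 CPM in the Trem2_KO libraries, a log2 change of 1.55 (SE 0.142, edgeR adjusted p = 3.91e-13). Its Trem2_KO libraries were all above its WT libraries, and the change was far outside the range of the 10 genes. The phagocytic receptor Mertk rose from 859 ± 12.8 to 1018 ± 16.5 CPM (SD, n = 3), and the transglutaminase Tgm2 rose by 0.09 on the log2 scale. Lower in Trem2_KO were Cd5l, a secreted survival factor of macrophages and a Kupffer cell marker (-0.20, SE 0.0203), and the lipoprotein lipase Lpl (-0.13, SE 0.0275). With the length trend removed, both were still called, Cd5l at -0.12 and Lpl at -0.22.

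Enzymes that make or remove LXR ligands included the largest fall of the related lists, that of Cyp7b1. Most were too low to test: 5 of 11 passed the filter, and 1 was called higher and 2 lower, beside 15.3% and 15.1% of all tested genes. Cyp7b1, which breaks down oxysterols, had 84, 94 and 78 reads in WT and 16, 14 and 18 reads in Trem2_KO, a log2 change of -2.52 (SE 0.235, edgeR adjusted p = 7.58e-13), or -1.29 on the scale of log2(FPKM + 1). No Trem2_KO library came near the WT range. Hepatocytes also carry this transcript, and the hepatocyte markers had a median log2 change of -0.35 in these libraries. Of these 12 markers, 7 were called lower and 2 higher, and Alb was not called (-0.05). Whether hepatocyte RNA bears on the fall of Cyp7b1 was not tested. Ebp, an isomerase of cholesterol synthesis, was called at -0.15 (adjusted p = 0.0458), and this call was lost whichever 1 of the 6 libraries was left out (adjusted p = 0.0517 to 0.159). Cyp27a1, which forms oxysterols in mitochondria, was not called (0.05, adjusted p = 0.339; chosen after its value was seen), and Ch25h, another oxysterol-forming enzyme, had 0 to 3 counts per library and was not tested.

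Among 14 tested genes of cholesterol ester handling and sterol transport, 3 were called higher and 2 lower, shares near the 15.3% and 15.1% of all tested genes. Gramd1b, which carries cholesterol from the plasma membrane to the endoplasmic reticulum, rose from 39.3 ± 0.959 to 56.3 ± 1.19 CPM (SD, n = 3), which is 0.52 on the log2 scale (SE 0.0565, edgeR adjusted p = 1.01e-10). Soat1, which esterifies cholesterol, rose by 0.15 and the endocytic receptor Lrp1 by 0.15, though with the length trend removed Soat1 was not called (0.07, adjusted p = 0.0607) and Lrp1 was at -0.0071. The lysosomal genes Npc2, which acts in sterol transport, and Lipa, which hydrolyses endocytosed cholesterol esters, fell by 0.13 and 0.10. With the length trend removed Lipa was not called (edgeR adjusted p = 0.128).

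In the SREBP-2 list, which holds the sterol sensor machinery, 3 of 10 were called higher and 0 lower. Among all tested genes, 15.3% were called higher and 15.1% lower. On the lower side the list also had 0 at an unadjusted edgeR p under 0.05 and 0 with DESeq2. The 3 called genes included Insig1 (0.23, SE 0.0545) and the protease gene Mbtps1 (0.13, edgeR adjusted p = 0.0321). Mbtps1 lost its call without WT replicate 2 or 3 or Trem2_KO replicate 2 or 3 (adjusted p = 0.0844 to 0.192), with DESeq2 (0.128) and with the length trend removed (0.634). Among 14 tested paralogues of the 10 genes, 2 were called higher and 1 lower, no larger a share than the 15.3% and 15.1% of all tested genes. The lipid transporter Abca2 rose by 0.35 (SE 0.0477) and Abca7 by 0.15 on the log2 scale, and the acyltransferase Lpcat2 fell by 0.23 (SE 0.0362). The call of Abca7 was lost without WT replicate 3 or Trem2_KO replicate 2 or 3 (adjusted p = 0.0606 to 0.0688) and with DESeq2 (0.0705).

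**Figure D4:**
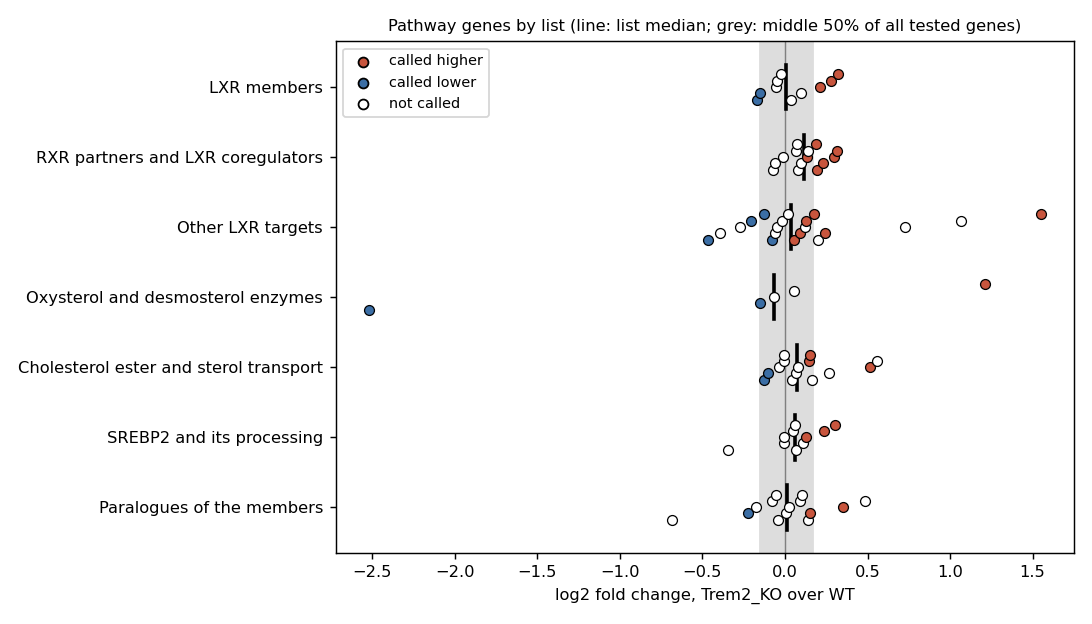
log2 fold change of Trem2_KO over WT for every tested gene of the 10-gene set (top row) and of the 6 related lists; black lines are list medians, fill shows the call and the grey band the middle 50% of all tested genes. Cyp7b1 at -2.52 and Fads2 at 1.55 stand apart, while the 10 genes lie between -0.17 and 0.32.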

How the data were processed

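RNA of sorted Kupffer cells was sequenced from 3 WT and 3 Trem2_KO samples, grouped and numbered by their titles. The deposited counts are whole numbers per gene without normalization, and the deposited FPKM equal the count over gene length and 1 constant per library (0.989 to 1.02 times its total). Per the submitters' processing notes, the tools were HISAT2 (version 2.0.5), featureCounts (version 1.5.0-p3) and DESeq2 (version 1.16.1), with GRCm38 and mm10 as builds. Strand setting and multi-mapping rule were not given in these sources, so overlapping genes on opposite strands cannot be told apart.

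The main test was edgeR 4.0.16 in R 4.3.3, a robust quasi-likelihood fit with genotype as its 1 term after filterByExpr and TMM, run over 13776 of 54532 genes. The filter kept at least 99.85% of each library's counts. SEs and 95% intervals follow from the quasi-F statistic. The test was run on counts simulated with the spread estimated from these libraries. Such a run cannot show whether that spread is technical. Shares used two-sided exact permutation tests on FPKM. A count of 0 allows 3 counts per library, a limit that covers counting error only. No pairing of the samples by replicate number was seen (see the closing section).

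The alternatives comprised 3 scalings, 3 gene filters, a threshold of 0.01, DESeq2 1.42.0, limma 3.58.1 (voom, and log2 of the deposited FPKM plus 1 or 0.1), a fixed variation of 0.2, removal of a gene length trend by offsets, a replicate block, and leaving out each library. Members, lists and tests were chosen with earlier results of these data known. Of each related list, up to 5 members called by smallest p are named (at least 2), and up to 3 of each marker list by level. Some genes of these lists enter the counts and medians but are not reported here.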

Additional observations from a re-analysis of the deposited data

How the results depend on the processing

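Over 22 alternatives, Abca1, Abcg1, Scd1 and Smpdl3a kept direction and call in 21 each, losing the call with the variation fixed at 0.2; Lpcat3 lost its call in 10, and Mylip was called in 7. Values that changed sign were Nr1h3 at 0.0070 after removal of the length trend (0.0072 with a replicate block added), Srebf1 at 0.0019 without Trem2_KO replicate 1 (-0.0778 to 0.0019 over the libraries left out), Scd2 at 0.0060 with total counts and 0.0036 without WT replicate 3 (-0.0769 to 0.0036), and Lrp1 at -0.0071 with the length trend removed (-0.0072 with the block). The cause of these differences was not tested. With the variation fixed at 0.2, 371 genes were called (268 higher, 103 lower), 0 of the 10 genes (0 higher, 0 lower) and 3 pathway genes: of partners and coregulators 0 higher, other targets 1 higher and 0 lower, ligand enzymes 1 higher and 1 lower, sterol transport 0 higher and 0 lower, SREBP-2 0 higher, paralogues 0 higher and 0 lower.

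With unfiltered log2(FPKM + 1), 1979 genes were called (960 higher, 1019 lower), 1 of the 10 genes lower, and 14 pathway genes: 2 partners and coregulators higher, 3 other targets higher and 1 lower, 1 ligand enzyme higher and 1 lower, 2 sterol transport genes higher and 1 lower, 1 SREBP-2 gene higher, and 1 paralogue higher and 1 lower. DESeq2 called 1385 genes lower, 1 of the 10 lower, 1 ligand enzyme lower and 1 paralogue higher. At an adjusted p under 0.01, 1359 genes were lower, 1 of the 10 lower, 2 other targets lower, 1 ligand enzyme lower and 1 paralogue higher. With total counts the split over all genes was 61.2% higher against 50.3%, 1 of the 10 was lower, 2 other targets lower, 1 ligand enzyme lower and 6 sterol transport genes higher, and the median of the 10 genes was 0.0363. With the length trend removed that median was 0.0423 (0.0425 with the replicate block), 1 of the 10 was lower, 1 coregulator lower, 2 other targets lower, 2 ligand enzymes higher and 1 lower, 1 sterol transport gene higher, and 1 paralogue higher and 2 lower, with the same counts under the block except for other targets. The stricter filter and protein-coding genes only each gave 1 ligand enzyme lower and 5 sterol transport genes higher. Limma on log2(FPKM + 1) and on log2(FPKM + 0.1) each gave 1 paralogue higher.

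Leaving out each library gave 3377 to 3909 called genes, 1 to 3 of the 10 genes lower (1 without WT replicate 2 or Trem2_KO replicate 2 or 3) and a median of 0.0059 to 0.0252 for them. It gave 0 to 1 coregulators lower, 2 to 4 other targets lower (2 without Trem2_KO replicate 1), 1 ligand enzyme lower throughout, and 1 to 2 paralogues higher and 1 to 2 lower. The replicate block alone changed no call of the 10 genes, with 5 called. Same-numbered libraries deviated together with r of -0.00787, 0.00313 and 0.0361 across genes, so no pairing by number was seen. Such correlations cannot exclude that same-numbered libraries were handled together. Paired sign-flip p-values of the shares, 0.25, are the smallest that 3 pairs allow. Depth limits the low genes: at 3 counts a library resolves 0.173 to 0.192 CPM.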
